A study of Ciona robusta with 12 samples.

Results

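Foxa.a and Foxd are forkhead transcription factors of the early ascidian embryo. They were followed here as 3 of the 15284 gene models of the deposited tables, chosen by identifier: KH.C11.313 for Foxa.a, and KH.C8.396 and KH.C8.890 for a pair of Foxd copies. All 3 passed the filter on low values in every fit. The pairing of names and identifiers was taken as given, since the gene table used here holds no KH identifier.

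Whole embryos of the tunicate Ciona robusta were profiled by RNA sequencing in 12 libraries, each from 300 pooled embryos grown at 21 degrees Celsius. Exposure to U0126, or to DMSO as its carrier, began at the 32-cell stage, and collection followed at 112 or 64 cells, per the labels. The U0126 dose is labelled as 4 mM, a high value for this inhibitor that may be an error in the unit, so the dose used is not certain. The carrier was diluted 1:1000. The groups were U0126 at 112 cells, DMSO at 112 cells, U0126 at 64 cells and DMSO at 64 cells, with 3 replicates each. No strain, mutation or transgene is given in the labels.

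In the ascidian embryo, maternal beta-catenin switches on Foxd in vegetal blastomeres, the precursors of endoderm, notochord and part of the neural tissue. Foxa.a acts in the same vegetal territory and is needed for notochord and endoderm. Foxd acts upstream of Zic-r.b, and Zic-r.b and Foxa.a are inputs to Brachyury, the notochord determinant, together with FGF signals that reach the nucleus through MEK and ERK. U0126 inhibits MEK, the kinase that activates ERK. The comparisons asked whether the early regulators declined or persisted between the stages, and whether MEK inhibition altered them.

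The libraries held 10623872 to 15956670 reads over genes. Libraries with the same replicate number deviated together, across treatments and stages. DMSO replicate 3 at 112 cells stood apart: 2.18% of the 9881 genes considered lay at least 4-fold under all other libraries there, against 0 to 2 genes in each of the others. Results for Foxa.a turn on that library and are given with and without it.

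Foxd transcripts fell steeply between the stages with or without the inhibitor. Foxa.a persisted at 112 cells in 2 of the 3 DMSO libraries, was near the treated level in the remaining one, and was low in all 3 U0126 libraries. The fall of Foxd passed the test in both treatments. The U0126 difference of Foxa.a passed it only when DMSO replicate 3 at 112 cells was left out.

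**Figure D1:**
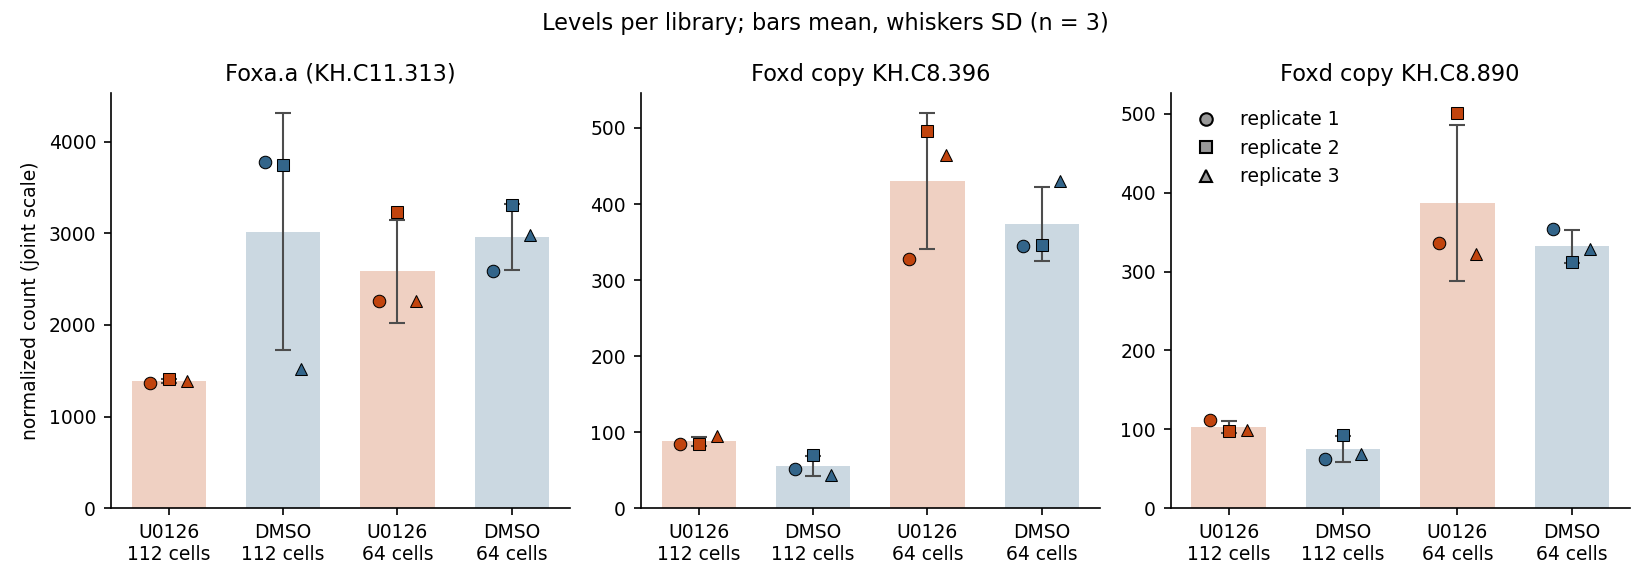
Normalized counts of Foxa.a and the Foxd copies per library, rescaled jointly over all 12 libraries. Bars give the mean and whiskers the SD of 3 replicates, and symbols mark the replicate numbers. Foxd copies are low in every 112-cell library, and Foxa.a is low in the U0126 libraries and in DMSO replicate 3 at 112 cells.

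Foxa.a was examined first for the U0126 effect at 112 cells. Its level was 1307, 1337 and 1326 normalized counts in U0126 replicates 1, 2 and 3, against 3605, 3549 and 1479.5 in DMSO replicates 1, 2 and 3. The U0126 libraries lay within a CV of 1.17%, under the counting error of 2.78% that their reads allow, whereas the DMSO libraries spread by 42.1%, against a counting error of 2.03%. All U0126 libraries were below all DMSO libraries, the nearest being DMSO replicate 3. Such a separation toward lower values was seen in 9.86% of all genes at this stage, so on its own it says little about Foxa.a.

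The mean of Foxa.a was 1323 ± 15.5 normalized counts in U0126 embryos and 2878 ± 1211 in DMSO embryos (SD, n = 3 each). This is a log2 fold change of -1.01 (SE 0.34, 95% interval -1.81 to -0.21), which missed the threshold (limma adjusted p = 0.578). At this stage 0.734% of genes were called. Of the 11315 genes tested, 235 had a lower estimate than Foxa.a. Without DMSO replicate 3 the DMSO mean was 3577 ± 40.1 (SD, n = 2), and the log2 fold change became -1.43 (95% interval -1.64 to -1.23, limma adjusted p = 0.00242). Foxa.a was then among the 0.559% of genes called lower. Over all alternatives its limma, edgeR or DESeq2 adjusted p ran from 1.50e-14 to 0.847. The lowest came from the fit with the replicate block and without DMSO replicate 3, which was chosen after the data were seen. That fit called 1252 of 11082 genes.

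Where DMSO replicate 3 lay for other genes was measured beside this result. Its Foxa.a level on the joint scale was 40.5% of the mean of DMSO replicates 1 and 2. Among 9417 genes, 8.73% were as low or lower there, and the median gene was at 93.4%. In the fit without this library 62 genes were called lower with U0126, Foxa.a included. For these 62 genes the median level was 19.5% of DMSO replicates 1 and 2 in U0126 libraries and 81.3% in DMSO replicate 3. In 57 of them, Foxa.a included, DMSO replicate 3 lay above all 3 U0126 libraries. In 39 of the 62, Foxa.a again included, it lay under DMSO replicates 1 and 2. The part of this library's difference in the Foxa.a result was not tested further. In whole embryos, fewer cells expressing a gene and less RNA per cell cannot be told apart.

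At 64 cells, soon after exposure, Foxa.a was at 2386, 3361 and 2375 normalized counts in U0126 replicates 1, 2 and 3, against 2748, 3508 and 3151 in the DMSO replicates. The groups overlapped, and replicate 2 was the highest library of both. Each U0126 library was below the DMSO library of the same number, at 86.8%, 95.8% and 75.4% of it. The means were 2708 ± 566 in U0126 and 3135 ± 380.3 in DMSO embryos (SD, n = 3 each). The log2 fold change was -0.22 (SE 0.16, 95% interval -0.60 to 0.15, limma adjusted p = 1.00). At this stage 0.0185% of genes were called. With the replicate number as a block the same change had an SE of 0.07 and a 95% interval of -0.36 to -0.08. It still missed the threshold (limma adjusted p = 0.102), when 146 of 10792 genes were called. In that fit limma treated the spread as common to genes of a given level. The SE and interval thus do not measure how the same-number pairs of Foxa.a varied.

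Between the stages Foxa.a was followed on the joint scale. In U0126 embryos it averaged 1388 ± 18.2 at 112 cells and 2582 ± 558 at 64 cells (SD, n = 3 each). The 112-cell level was 60.5%, 43.6% and 61.6% of the 64-cell level in replicates 1, 2 and 3, and the groups did not overlap, as in 12.3% of all genes in this direction. The log2 change of -0.87 (SE 0.30, 95% interval -1.53 to -0.22) missed the threshold (limma adjusted p = 0.127). Lower calls made up 1.89% of genes in this comparison.

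The spread in that fit is shared by all 12 libraries. Without DMSO replicate 3 at 112 cells the same change of -0.87 had an SE of 0.14 and passed the test (limma adjusted p = 0.0021), when 4.42% of genes were called lower. DESeq2 also called it with all libraries (DESeq2 adjusted p = 0.033), beside 3.4% of genes called lower. The limma, edgeR or DESeq2 adjusted p ran from 4.40e-06 to 0.367 over all alternatives. The lowest again came from the fit with the replicate block and without that DMSO library, chosen after the data were seen.

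In DMSO embryos Foxa.a was at 3776, 3748 and 1523.6 on the joint scale at 112 cells, against 2589, 3308 and 2985 at 64 cells. Replicates 1 and 2 were thus higher at the later stage, at 146% and 113% of the 64-cell level, and replicate 3 lower, at 51.0%. The means were 3016 ± 1292 at 112 cells and 2961 ± 360.1 at 64 cells (SD, n = 3 each), with a log2 change of -0.08 (SE 0.30, 95% interval -0.73 to 0.57, limma adjusted p = 0.914). Without DMSO replicate 3 at 112 cells the log2 change was 0.35 (95% interval 0.01 to 0.70, limma adjusted p = 0.264). With all libraries edgeR and DESeq2 gave 0.0099 and 0.034, so the sign of this change was not settled. It was called higher only in the fit that both added the replicate block and left out that library, as were 13.1% of genes, and over all alternatives the limma, edgeR or DESeq2 adjusted p ran from 0.038 to 0.999. In this comparison 7.59% of genes were called. It shares the DMSO libraries at 112 cells with the U0126 effect at that stage.

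The U0126 effect on Foxa.a was compared directly between the stages. It was more negative at 112 cells by 0.79 on the log2 scale, a difference of -0.79 (SE 0.42, 95% interval -1.72 to 0.13, limma adjusted p = 0.999). Among all genes, 0.155% were called here. Without DMSO replicate 3 at 112 cells the difference was -1.23 (95% interval -1.69 to -0.77, limma adjusted p = 0.0834). With the replicate number as a block as well, it was -1.20 (limma adjusted p = 0.000269), and 0.946% of genes were called more negative. The adjusted p ran from 0.000269 to 1.00 over all alternatives, so the data do not settle whether the effect grew.

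**Figure D2:**
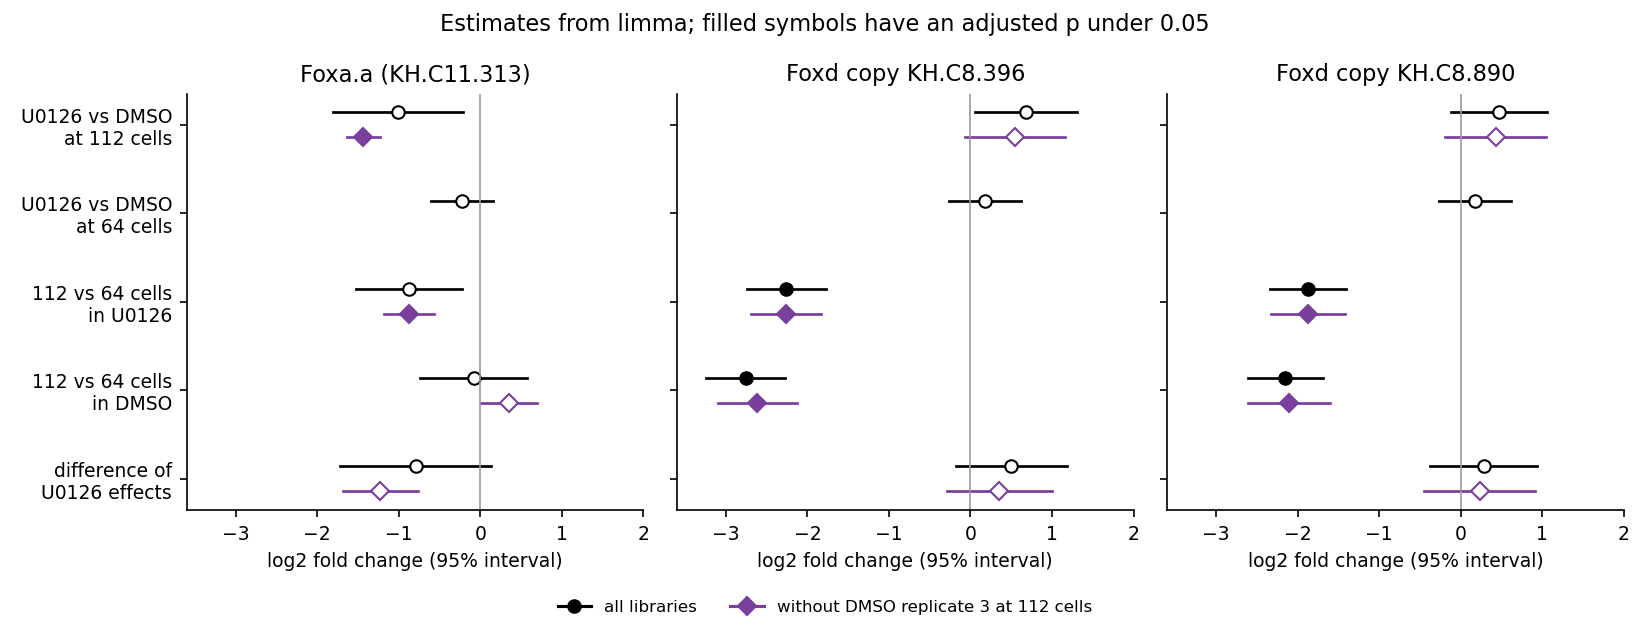
Log2 fold changes with 95% intervals for Foxa.a and the Foxd copies, from all libraries (circles) and without DMSO replicate 3 at 112 cells (diamonds). Filled symbols have a limma adjusted p under 0.05. The stage falls of Foxd are filled in both fits, and Foxa.a is filled only in the diamonds for U0126 against DMSO at 112 cells and for 112 against 64 cells in U0126 embryos.

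Foxd declined between the stages. In DMSO embryos KH.C8.396 was at 51.6, 69.6 and 44.0 normalized counts on the joint scale at 112 cells in replicates 1, 2 and 3, against 345, 346 and 431 at 64 cells. Its copy KH.C8.890 was at 62.6, 93.1 and 68.8 at 112 cells, against 354, 312 and 329 at 64 cells. Every 112-cell library was below every 64-cell library for both copies. In 11.6% of all genes the DMSO libraries were separated in this direction.

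In DMSO embryos KH.C8.396 averaged 55.1 ± 13.1 at 112 cells and 374 ± 49.3 at 64 cells (SD, n = 3 each). By replicate number, 85.0%, 79.9% and 89.8% of its 64-cell level was lost. KH.C8.890 averaged 74.9 ± 16.1 at 112 cells and 332 ± 21.3 at 64 cells, and lost 82.3%, 70.1% and 79.1%. KH.C8.890 fell by 2.15 on the log2 scale (SE 0.21, 95% interval -2.61 to -1.69, limma adjusted p = 5.32e-05). KH.C8.396 fell by 2.76 (95% interval -3.24 to -2.28, limma adjusted p = 1.20e-05). Both copies were called, against 2.21% of genes called lower in this comparison. Of 11650 genes tested, 1 had a lower estimate than KH.C8.396 and 6 had a lower one than KH.C8.890.

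In U0126 embryos both copies fell as well. KH.C8.396 was at 84.3, 84.6 and 94.7 on the joint scale at 112 cells, against 328, 497 and 465 at 64 cells. KH.C8.890 was at 112, 98.2 and 99.2 at 112 cells, against 336, 501 and 323 at 64 cells. Again the stages did not overlap, as in the 12.3% of all genes separated in this direction in U0126 embryos. KH.C8.396 fell by 2.26 on the log2 scale (SE 0.22, 95% interval -2.74 to -1.78, limma adjusted p = 4.95e-05) and KH.C8.890 by 1.87 (SE 0.21, 95% interval -2.33 to -1.41, limma adjusted p = 0.000167). Both copies were called, against 1.89% of genes called lower in this comparison. Of the 11650 genes, 2 and 4 had lower estimates. Stage coincides with the deposited table, so a stage difference and any collection or sequencing batch cannot be told apart.

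**Figure D3:**
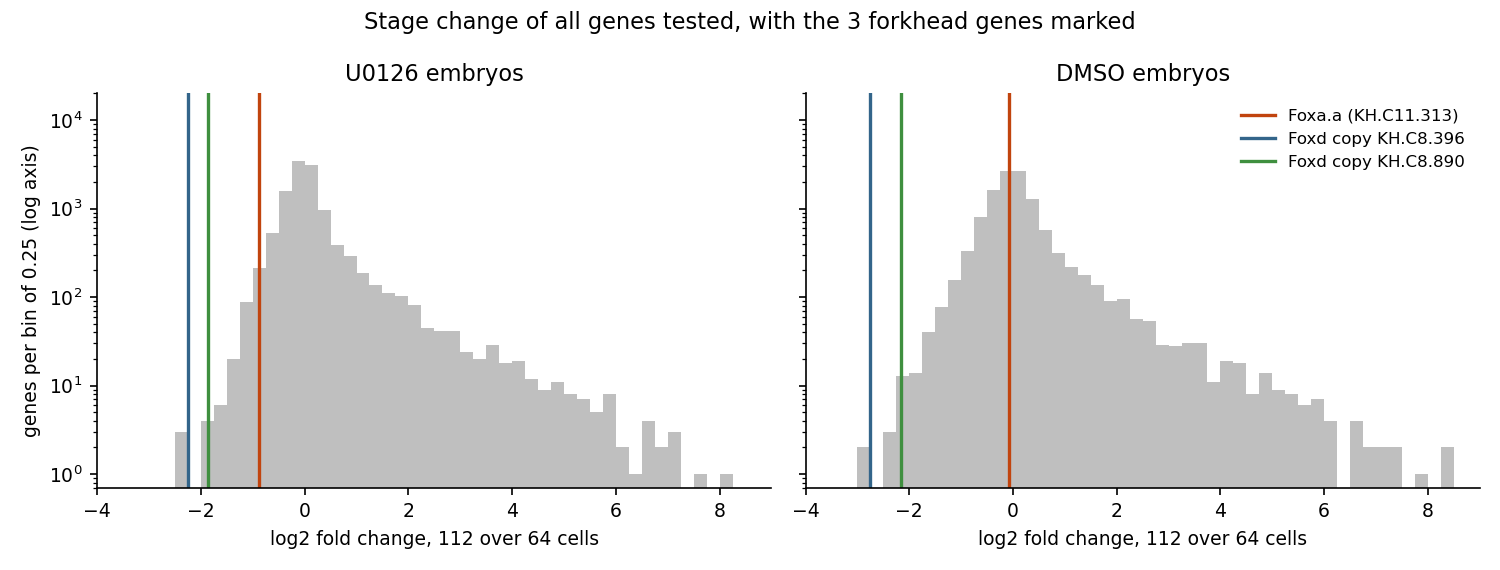
Log2 fold change of 112 over 64 cells for all 11650 genes tested, in U0126 embryos (left) and DMSO embryos (right). The x axis is on a log2 scale, the y axis counts genes per bin on a log scale, and vertical lines mark the forkhead genes. The Foxd copies lie at the low end in both treatments, and Foxa.a lies near the centre in DMSO embryos and left of it in U0126 embryos.

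The Foxd remnant at 112 cells was then compared between the treatments. KH.C8.396 was at 80.5, 80.5 and 90.3 normalized counts in U0126 replicates 1, 2 and 3, against 49.3, 65.9 and 42.7 in the DMSO replicates. KH.C8.890 was at 107, 93.5 and 94.6 in U0126 embryos, against 59.8, 88.2 and 66.9 in DMSO embryos. The groups did not overlap for either copy, as in 12.1% of all genes in this direction. These values rested on 80 to 106 reads in U0126 and 39 to 91 reads in DMSO libraries.

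Neither copy passed the test at 112 cells. The log2 fold change with U0126 was 0.68 for KH.C8.396 (SE 0.27, 95% interval 0.05 to 1.31, limma adjusted p = 0.578) and 0.47 for KH.C8.890 (SE 0.25, 95% interval -0.12 to 1.06, limma adjusted p = 0.578). As the reads of copies can be shared or split in counting, the copies were also summed. The sum averaged 182 ± 7.02 normalized counts in U0126 and 124 ± 25.8 in DMSO embryos (SD, n = 3 each). Its log2 fold change was 0.57 (95% interval 0.05 to 1.08, limma adjusted p = 0.578). DMSO replicate 2 was the highest of its group, so that its pair with U0126 replicate 2 differed least, at 113% against 172% and 169% for replicates 1 and 3. The sum was called only with the replicate block and without DMSO replicate 3 (log2 fold change 0.47, limma adjusted p = 0.0453, 0.0453 to 0.847 over all alternatives), when 7.63% of genes were called higher.

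At 64 cells the Foxd copies overlapped between the treatments. KH.C8.396 was at 346, 517 and 489 normalized counts in U0126 embryos, against 366, 367 and 454 in DMSO embryos. KH.C8.890 was at 355, 522 and 339.6 in U0126 embryos, against 376, 331 and 347 in DMSO embryos. U0126 replicate 2 was the highest library for both copies. With the replicate block the 95% intervals of the log2 fold changes were 0.003 to 0.345 for KH.C8.396 and 0.003 to 0.356 for KH.C8.890. Neither was called in that fit (limma adjusted p = 0.597 each). There limma treated the spread as common to genes of a given level. The intervals thus do not measure how the same-number pairs of each copy varied. By replicate number the log2 differences were -0.08, 0.49 and 0.11 for KH.C8.396, and -0.08, 0.66 and -0.03 for KH.C8.890. The log2 fold changes were 0.17 (95% interval -0.27 to 0.62) and 0.18 (95% interval -0.26 to 0.62), each with a limma adjusted p of 1.00. The U0126 effect did not pass the test of a difference between the stages either, with 0.50 for KH.C8.396 (95% interval -0.18 to 1.18) and 0.28 for KH.C8.890 (95% interval -0.37 to 0.93), each with a limma adjusted p of 0.999.

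The Foxd copies moved closely together, with a Pearson r of 0.986 between them over the 12 libraries, a description that their shared stage change and any shared reads can set. Their proportion nevertheless shifted between the stages. KH.C8.396 made up 43.0% to 48.8% of the Foxd counts in U0126 embryos and 39.0% to 45.2% in DMSO embryos at 112 cells. At 64 cells it made up 49.4% to 59.0% in U0126 embryos and 49.3% to 56.7% in DMSO embryos. No 112-cell library reached the lowest 64-cell share. The log2 ratio of KH.C8.396 to KH.C8.890 was lower at 112 cells by a mean of -0.50 over both treatments (exact permutation test within treatments, two-sided, p = 0.005). That p is the smallest this test can give. Flipping the signs of the same-number stage differences, which keeps the pairing, gave a sign-flip p of 0.03125, also the smallest possible. How alike the copies are in sequence was not analysed here.

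The ratio of Foxa.a to the summed Foxd copies does not depend on the scaling of the tables. Its size also reflects transcript lengths, so only its changes are read. At 112 cells the ratio was 6.95, 7.65 and 7.14 in U0126 replicates 1, 2 and 3, against 32.8, 22.9 and 13.4 in the DMSO replicates. At 64 cells it was 3.40, 3.23 and 2.86 in U0126 embryos, against 3.70, 5.02 and 3.92 in DMSO embryos. All 112-cell ratios were above all 64-cell ratios, by a mean log2 difference of 1.78 (exact permutation test within treatments, two-sided, p = 0.005, again the smallest possible). Sign flips of the same-number pairs gave a sign-flip p of 0.03125, the smallest that test can give.

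The same ratio was lower with U0126 at each stage, DMSO replicate 3 at 112 cells included. This comparison was chosen after the values were seen. The mean log2 difference between U0126 and DMSO was -1.58 at 112 cells and -0.40 at 64 cells, and each alone can reach no p under 0.1 (exact permutation test, two-sided, p = 0.1 each). Over both stages the mean was -0.99 (exact permutation test within stages, two-sided, p = 0.005, the smallest possible). The 3 ratio comparisons keep a permutation p of 0.005 each after Benjamini-Hochberg adjustment over them. That adjustment does not account for choosing the treatment comparison after seeing the values, so its p is a description only. All 6 same-number pairs had a lower ratio in the U0126 library. Without DMSO replicate 3 the difference at 112 cells was -1.92.

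**Figure D4:**
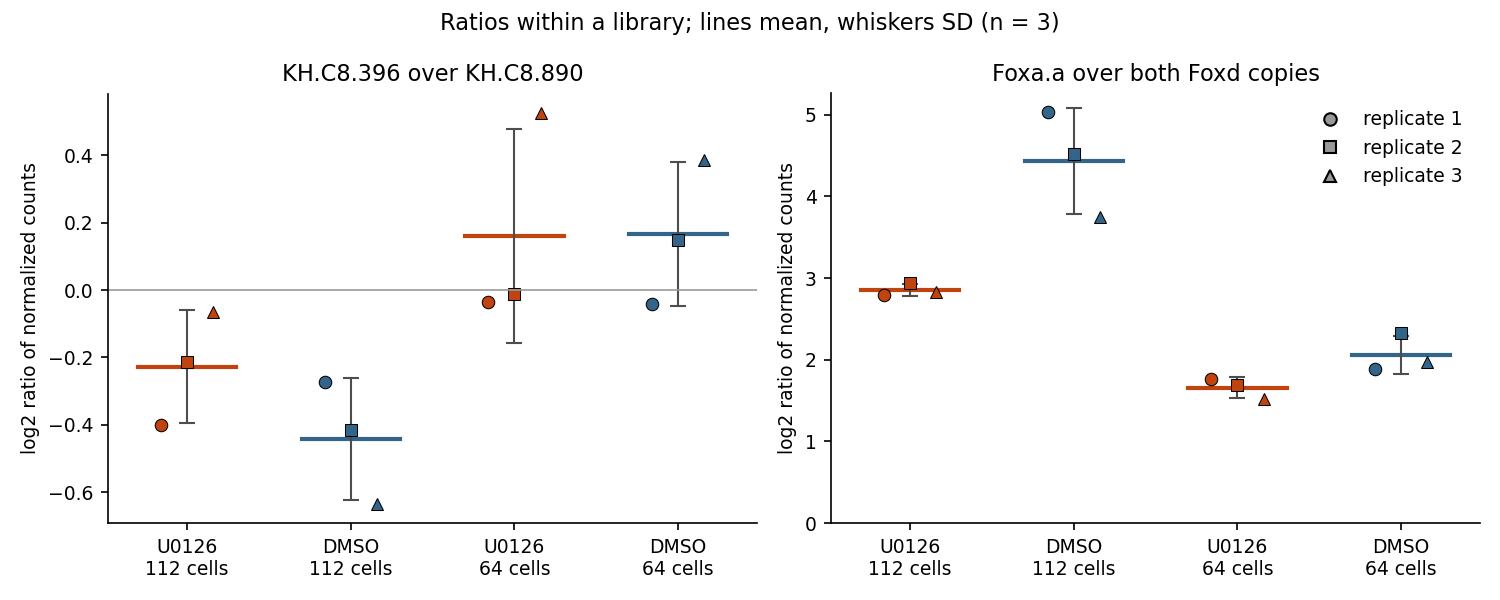
Log2 ratios of normalized counts within each library, for KH.C8.396 over KH.C8.890 (left) and Foxa.a over the summed Foxd copies (right). Horizontal lines give the mean and whiskers the SD of 3 replicates, with symbols for the replicate numbers. The left ratio is below 0 in all 112-cell libraries, and the right one is lower in U0126 than in DMSO libraries at each stage.

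The genes most like each regulator over the 12 libraries were found among 9325 genes with a mean of at least 50 normalized counts. For Foxa.a these were KH.C11.697 (Pearson r = 0.935), KH.C1.941 (r = 0.895) and KH.C7.207 (r = 0.888). KH.C11.697 averaged 337 ± 18.1 in U0126 and 619 ± 216 in DMSO embryos at 112 cells, and 524 ± 47.9 and 711 ± 66.3 at 64 cells. It too was low in DMSO replicate 3 at 112 cells, at 374 against 703 and 779.7 in replicates 1 and 2. The same held for KH.C1.941, at 107 against 201 and 195, and for KH.C7.207, at 155 against 445 and 386. That library thus contributes to the likeness of all 3 genes.

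For the summed Foxd copies the nearest genes were KH.L170.16 (Pearson r = 0.988), KH.C3.773 (r = 0.986) and KH.S455.6 (r = 0.983). KH.C3.773 averaged 4616 ± 406 at 112 cells and 16292 ± 2097 at 64 cells in U0126 embryos. In DMSO embryos it averaged 4087 ± 735 and 15524 ± 401 (SD, n = 3 each). Foxa.a and the summed Foxd copies had an r of 0.351. These correlations share libraries, depth and the stage difference, and are descriptions only.

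A list of 22 other gene models, meant as early regulators, gives a frame for these values. Its members are kept by identifier because no source used here pairs them with names. The list was chosen with earlier results of these data known, so an excess of calls over all genes is not independent evidence. With U0126 at 112 cells limma called 2 higher and 3 lower, beside 0.203% and 0.53% of all genes, and 17 did not pass the test. Their median log2 fold change was 0.11, against -0.00 over all genes. Of the 22, 17 had an unadjusted limma p under 0.05, beside 596 of all 11315 genes tested. Without DMSO replicate 3 limma called 4 higher and 6 lower, beside 0.514% and 0.559% of all genes, and the median turned to -0.15, against 0.01, so that library decides the sign of the median. With all libraries DESeq2 called 3 higher and 9 lower, beside 0.681% and 1.26% of all genes. edgeR called 2 and 4, beside 21 and 61 of all genes, and limma with the replicate block 0 and 3, beside 4 and 45.

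At 64 cells limma called 0 of the listed genes higher and 2 lower, with a median of 0.05, against 0.01. These 2 are all the genes called at that stage, 0.0185% of those tested. There 8 had an unadjusted limma p under 0.05, beside 96 of all 10792 genes. edgeR called 0 higher and 1 lower, beside 0 and 1 of all genes. DESeq2 called 0 and 5, beside 4 and 13, and limma with the replicate block 3 and 5, beside 75 and 71. Between the stages, in U0126 embryos, limma called 6 of the listed genes higher at 112 cells and 2 lower, beside 4.9% and 1.89% of all genes. The other 14 did not pass the test (median 0.19, against -0.01). In DMSO embryos limma called 9 higher and 2 lower, beside 5.38% and 2.21% of all genes, and 11 did not pass (median 0.55, against 0.00). For the change in the U0126 effect from stage to stage limma called 0 of the 22, beside 18 of all 11650 genes. Here 9 of the 22 had an unadjusted limma p under 0.05, beside 241 of all genes. edgeR called 0 there, beside 14 of all genes. DESeq2 called 3, all more negative at 112 cells, beside 42 of all genes in that direction. With the replicate block, or without DMSO replicate 3 at 112 cells, limma called 1, also more negative, beside 30 and 8 of all genes.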

How the data were processed

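For each stage the authors deposited, per the file headers, a signal made of gene read counts divided by a library size factor, beside regularized log2 values that were not analysed. The submitters' processing notes name TopHat2 2.9.8b and DESeq 1.8.1. The sources used here do not name the read counter, strand setting or genome build, so reads of near-identical copies and overlapping genes may be shared or split.

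In each library 100% of values were whole multiples of the smallest within 0.01, which gave whole reads. A count of 0 allows 3 reads, and depth errors cover counting only. U0126 effects were fitted per stage on log2(normalized count + 1) with limma 3.58.1 in R 4.3.3, with a variance trend. Stage changes and differences used all 12 libraries, with the reads of both tables scaled jointly by median-of-ratios factors. Genes had at least 10 normalized counts in at least 3 libraries, and adjusted p-values are Benjamini-Hochberg over all genes, called under 0.05. Fold changes are on that log2 scale, which understates changes of low genes. edgeR 4.0.16 and DESeq2 1.42.0 on the reads were alternatives. Ratios were tested with exact permutation tests on log2(value + 1), and with sign flips of the same-number pairs as an alternative. The limma fits were also run on simulated counts. These held no replicate-number effect and no library standing apart, so that run does not cover such features.

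The replicate numbers were taken to pair the libraries, from the data: deviations from group means correlated at 0.290 to 0.866 within and 0.178 to 0.793 across stages for the same number, and at -0.494 to 0.030 for different numbers. What libraries of 1 number share is not in the labels, and the series text calls the replicates biological. The genes and lists were chosen with earlier results of these data known. Beside Foxa.a, Foxd and the listed gene models, the text names the 3 genes most correlated with each regulator. Other forkhead genes were not analysed here.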

Additional observations from a re-analysis of the deposited data

How the results depend on the processing

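The stage falls of both Foxd copies and of their sum kept direction and call, in either treatment, under every alternative tried. The replicate block alone changed no call for Foxa.a or Foxd. For Foxa.a, leaving out single libraries gave log2 U0126 effects of -1.43 to -0.79 at 112 cells and stage changes in U0126 embryos of -0.96 to -0.70, and the call appeared only without DMSO replicate 3 at 112 cells. DESeq2 gave the latter change as -0.89 and called it. With the replicate block and without that library, chosen after seeing the data, the log2 values were -1.44 for Foxa.a at 112 cells, -0.87 for its stage change in U0126 embryos, 0.33 in DMSO embryos, the reverse of the estimate from all libraries, -1.20 for the difference between stages and 0.47 for the summed Foxd copies at 112 cells. That fit at 112 cells has 1 residual degree of freedom, and limma then treats the spread as common to genes of a given level. The replicate-block fit at 64 cells used such a common spread too. For the ratios, DMSO libraries alone gave -0.61 (Foxd copies) and 2.37 (Foxa.a to Foxd), and U0126 libraries alone -0.39 and 1.20. Sign flips without DMSO replicate 3 gave -0.39 and 1.79. The treatment difference of Foxa.a to Foxd was -1.58 at 112 cells alone, -1.92 there without DMSO replicate 3, and -0.40 at 64 cells alone. These tests cannot reach the threshold. Counts of all genes called moved more: at 64 cells 2 became 146 with the replicate block and 17 with DESeq2, at 112 cells 83 became 49, 219 and, without single libraries, 16 to 119. The stage counts of 884 in DMSO and 791 in U0126 embryos became 2035 and 1764 with the block and 567 to 856 and 502 to 1188 without single libraries, and the 18 genes of the difference became 31 with the block, 50 with DESeq2 and 0 to 9 without single libraries. With the block and without DMSO replicate 3 these counts were 1252 at 112 cells, 3079, 4132 and 135. At 112 cells 39 to 106 reads per Foxd copy limit the precision.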
